A study of Homo sapiens with 6 samples.

Results

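The 1119 γH2AX peaks that lie on chromosome 17 are described here, of 12579 peaks in all. They are every peak whose chromosome is 17 in the 4 deposited lists, with the unplaced contigs of that chromosome left out (2 peaks from pemetrexed-treated knockout cells and 1 from cisplatin-treated wild-type cells). The cell line was DLD1, from a human colorectal cancer. Its cells were either UNG-/- (KO) or UNG+/+ (WT), and γH2AX was mapped by chromatin immunoprecipitation and sequencing (ChIP-seq) with an antibody to H2A.X phosphorylated at S139. The 4 groups used were KO cells given pemetrexed, WT cells given pemetrexed, KO cells given cisplatin and WT cells given cisplatin. Each group is 1 library. The untreated KO and WT libraries were not analysed here. The sources used here do not give doses, exposure times or whether the knockout is a single clone.

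H2AX is a histone variant whose tail is phosphorylated by the damage kinases ATM, ATR and DNA-PK around a broken DNA end. The mark spreads from the break along the chromatin of the same chromosome, so it forms domains rather than points. UNG cuts uracil out of DNA and so starts base excision repair. Pemetrexed blocks thymidylate synthase and other folate enzymes, which raises the supply of dUTP over dTTP and lets uracil enter DNA. Cisplatin binds purine bases and forms crosslinks, a lesion that UNG does not excise. Chromosome 17 is among the gene-dense human chromosomes, with a short arm and a much longer long arm.

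The lists give a chromosome, a start and an end for each peak in build hg18, and no height or score. Differences between lists therefore have no replicate check and no p-value. The intervals given are exact 95% intervals for counting error only, and they treat peaks as independent, although neighbouring peaks may belong to 1 domain. Read depth is unknown, and its part in any difference between lists was not tested. Positions alone cannot check the labelled cell line or genotype.

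The design asks where γH2AX lies after pemetrexed in cells with and without UNG. On chromosome 17 the KO pemetrexed list held 639 peaks and the WT pemetrexed list 36, a ratio of 17.8 (95% interval 12.7 to 25.6). On the other chromosomes the numbers were 4633 in KO and 880 in WT, a ratio of 5.26 (4.90 to 5.66). The odds of a pemetrexed peak lying on chromosome 17 were thus 3.37 times as high in KO as in WT (2.39 to 4.89). KO pemetrexed peaks covered 1.19 Mb of the chromosome, or 1.52% of the span between the first and last peak of any list, and WT pemetrexed peaks covered 22.1 kb (0.0282%), a ratio of 53.9. Joining peaks of a list within 10 kb lowered the ratio of numbers to 10.5, and joining within 100 kb lowered it to 2.91. Among peaks of at least 600 bp it was 48.6. That cut lies above the WT pemetrexed median width of 589 bp, so it drops a larger part of that list than of the KO list.

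After cisplatin the KO list held 301 peaks on chromosome 17 and the WT list 143, a ratio of 2.10 (95% interval 1.72 to 2.59). The ratio elsewhere was 2.56 (2.42 to 2.71), and the KO over WT odds of a cisplatin peak lying on chromosome 17 were 0.821 (0.665 to 1.02). Covered bases were 274 kb in KO and 99.9 kb in WT, a ratio of 2.74. On this chromosome the KO over WT ratio for pemetrexed was 8.42 times the one for cisplatin (5.64 to 12.8). It was 5.38 with peaks within 10 kb joined, 1.97 with peaks within 100 kb joined and 15.5 among peaks of at least 600 bp. On the other chromosomes, pooled, the value without joining was 2.05 (1.87 to 2.25). It was not computed for chromosomes 19, 16 and 22 alone. Their KO over WT ratios were 25.03, 12.0 and 15.3 for pemetrexed and 2.77, 3.21 and 3.52 for cisplatin. A higher ratio for pemetrexed is thus not particular to chromosome 17. The KO over WT odds ratio of lying on chromosome 17 was 4.11 times larger for pemetrexed than for cisplatin, with a Wald 95% interval of 2.75 to 6.13.

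Between the drugs, the KO cells had 2.12 times as many pemetrexed as cisplatin peaks on chromosome 17 (95% interval 1.85 to 2.44), with a ratio of 1.09 on the others pooled. Chromosomes 19, 16 and 22 had KO ratios of 2.20, 1.98 and 1.79, and each of the 3 intervals of the difference from chromosome 17 spans 1 (odds ratios 0.964, 1.07 and 1.19). Joining peaks within 100 kb reversed the order of the drugs, with a ratio of 0.651. In WT cells the pemetrexed list was the shorter, at 0.252 times the cisplatin list (0.170 to 0.365). Chromosome 17 held 12.1% of all KO pemetrexed peaks (11.2 to 13.0%), 3.90% of WT pemetrexed peaks (2.74 to 5.35%), 6.59% of KO cisplatin peaks (5.88 to 7.34%) and 7.91% of WT cisplatin peaks (6.71 to 9.26%). As a yardstick, it accounts for 2.78% of the total span between first and last peaks and holds 5.83% of the protein-coding genes of the RefSeq table (1169 of 20037, counted by chromosome name alone). WT pemetrexed was the list with a share below that of the genes. The KO pemetrexed share was the highest of the 4.

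The KO pemetrexed list also had the widest peaks of the 4. Its chromosome 17 peaks had a median width of 1247 bp (quartiles 915 and 2199, range 520 to 15871). WT pemetrexed peaks had a median of 589 bp (range 434 to 950). KO cisplatin peaks had a median of 847 bp (404 to 1952) and WT cisplatin peaks 634 bp (411 to 1748). Peaks of 2 kb or more numbered 180 in the KO pemetrexed list, or 28.2% (24.7 to 31.8%). No peak of the other 3 lists on this chromosome was that wide, and 3 counts would be a share of 8.33% for WT pemetrexed, 0.997% for KO cisplatin and 2.10% for WT cisplatin. The KO pemetrexed widths on each side of that mark were 1978 and 2002 bp, so it cuts through a continuous range.

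**Figure D1:**
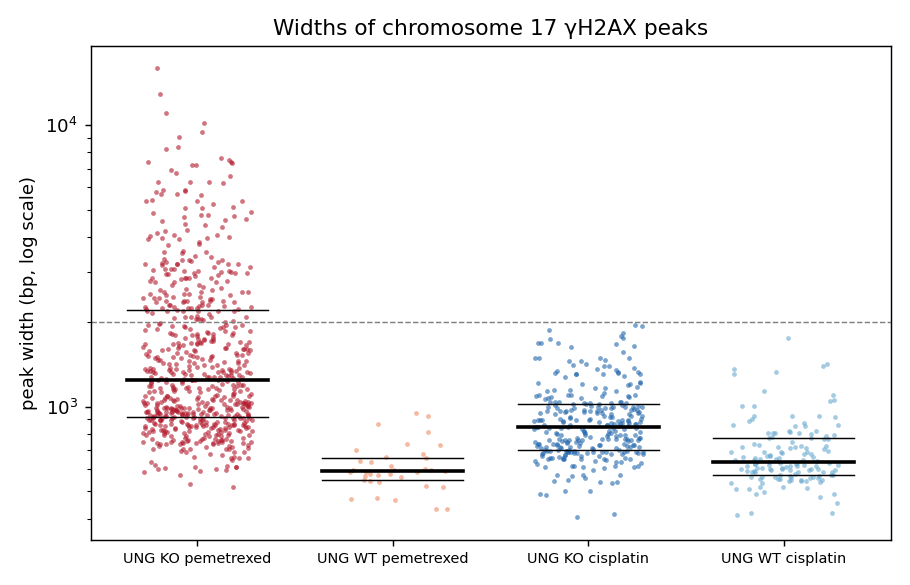
Each point is 1 chromosome 17 peak, with its width in bp on a log scale, by list. Thick lines are medians, thin lines are quartiles and the dashed line is 2 kb. KO pemetrexed peaks reach 15871 bp, while the other 3 lists end at 950, 1952 and 1748 bp.

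The 5 widest KO pemetrexed peaks of the chromosome all lay on the long arm. The widest spanned 15871 bp (76714584 to 76730455) and was the one of the 5 that met a peak of another list, a KO cisplatin peak. The next was 12888 bp (77986167 to 77999055), followed 29295 bp further on by the fourth, of 10181 bp (78028350 to 78038531). The remaining pair were neighbours, 9470 bp (43957270 to 43966740) and 11008 bp (43969543 to 43980551), with 2803 bp between them. The widest peaks of the other lists lay at other positions. In WT pemetrexed they were 950 bp (39542814 to 39543764), 924 bp (42588985 to 42589909) and 868 bp (23203116 to 23203984), and the first of them met a WT cisplatin peak. The widest KO cisplatin peak was 1952 bp (52537700 to 52539652), followed by 1924 bp (73941791 to 73943715), 1865 bp (75805513 to 75807378), 1817 bp (68167566 to 68169383) and 1777 bp (17734161 to 17735938). None of these 5 met a peak of another list, and their windows of 1 Mb held 6, 15, 4, 6 and 27 KO pemetrexed peaks. Over the chromosome, 13.3% of KO cisplatin peaks met a KO pemetrexed peak, and 5 peaks are too few to be set apart from that share. The widest WT cisplatin peak, 1748 bp (15794733 to 15796481), lay in a window of 1 Mb with no KO pemetrexed peak at all. The next WT cisplatin peaks were 1421 bp (37061814 to 37063235) and 1390 bp (71421692 to 71423082), and they too met no other list.

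Within the KO pemetrexed list, wide peaks were commoner where peaks were crowded. In windows of 1 Mb with 10 or more KO pemetrexed peaks, 171 of 525 peaks (32.6%) were 2 kb or wider, and in windows with fewer they were 9 of 114 (7.89%), an odds ratio of 5.62 (95% interval 2.76 to 13.0). The last 5 Mb of the long arm had 62 wide peaks of 150, against 118 of 489 on the rest of the chromosome (odds ratio 2.21, 1.48 to 3.31). The first 5 Mb of the short arm had 23 of 115, against 157 of 524 on the rest (0.585, 0.340 to 0.973). The ends were not tested against each other. These contrasts are within 1 library, and the mark of 10 peaks per window was set with the counts in view.

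KO pemetrexed peaks outnumbered WT pemetrexed peaks on both arms. Arms were split at the window from 22000001 to 23000000, which general knowledge puts at the centromere, and peaks were placed by their midpoint. On the short arm there were 193 KO and 12 WT pemetrexed peaks, a ratio of 16.1 (8.998 to 31.7). On the long arm there were 446 and 24, a ratio of 18.6 (12.3 to 29.3). The KO over WT odds of a pemetrexed peak lying on the short arm were 0.866 (0.407 to 1.94). The density of KO pemetrexed peaks was 8.81 per Mb of short arm and 8.02 per Mb of long arm.

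For cisplatin the short arm held 95 KO and 32 WT peaks (ratio 2.97, 1.97 to 4.58) and the long arm 205 and 110 (1.86, 1.47 to 2.37). The KO over WT odds of the short arm were 1.59 (0.983 to 2.62). The pemetrexed odds ratio was 0.543 times the cisplatin one, with a Wald interval (0.232 to 1.27) that spans 1. The window at the centromere held no pemetrexed peak of either genotype, 1 KO cisplatin peak and 1 WT cisplatin peak. A stretch of 1.54 Mb that reaches into it (21049501 to 22589022) had no peak in any list.

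The ends of the chromosome held a larger share of the KO pemetrexed than of the KO cisplatin list. The outermost 5 Mb at each end of the covered span held 41.5% of KO pemetrexed peaks (265, 95% interval 37.6 to 45.4%), 25% of WT pemetrexed peaks (9, 12.1 to 42.2%), 28.9% of KO cisplatin peaks (87, 23.8 to 34.4%) and 28.7% of WT cisplatin peaks (41, 21.4 to 36.8%). These stretches are 12.7% of the covered span. No share for the ends of the other chromosomes was computed, so these shares cannot be called particular to chromosome 17. The KO over WT odds ratio of lying there was 2.12 for pemetrexed (0.9502 to 5.22) and 1.01 for cisplatin (0.639 to 1.62), and both intervals span 1. In KO cells the pemetrexed over cisplatin odds ratio was 1.74 (1.29 to 2.37). The first KO pemetrexed peak began at 93899 and the last ended at 78615302. WT pemetrexed peaks ran over 212308 to 78103404, KO cisplatin peaks over 446600 to 78589508 and WT cisplatin peaks over 752034 to 77975597.

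**Figure D2:**
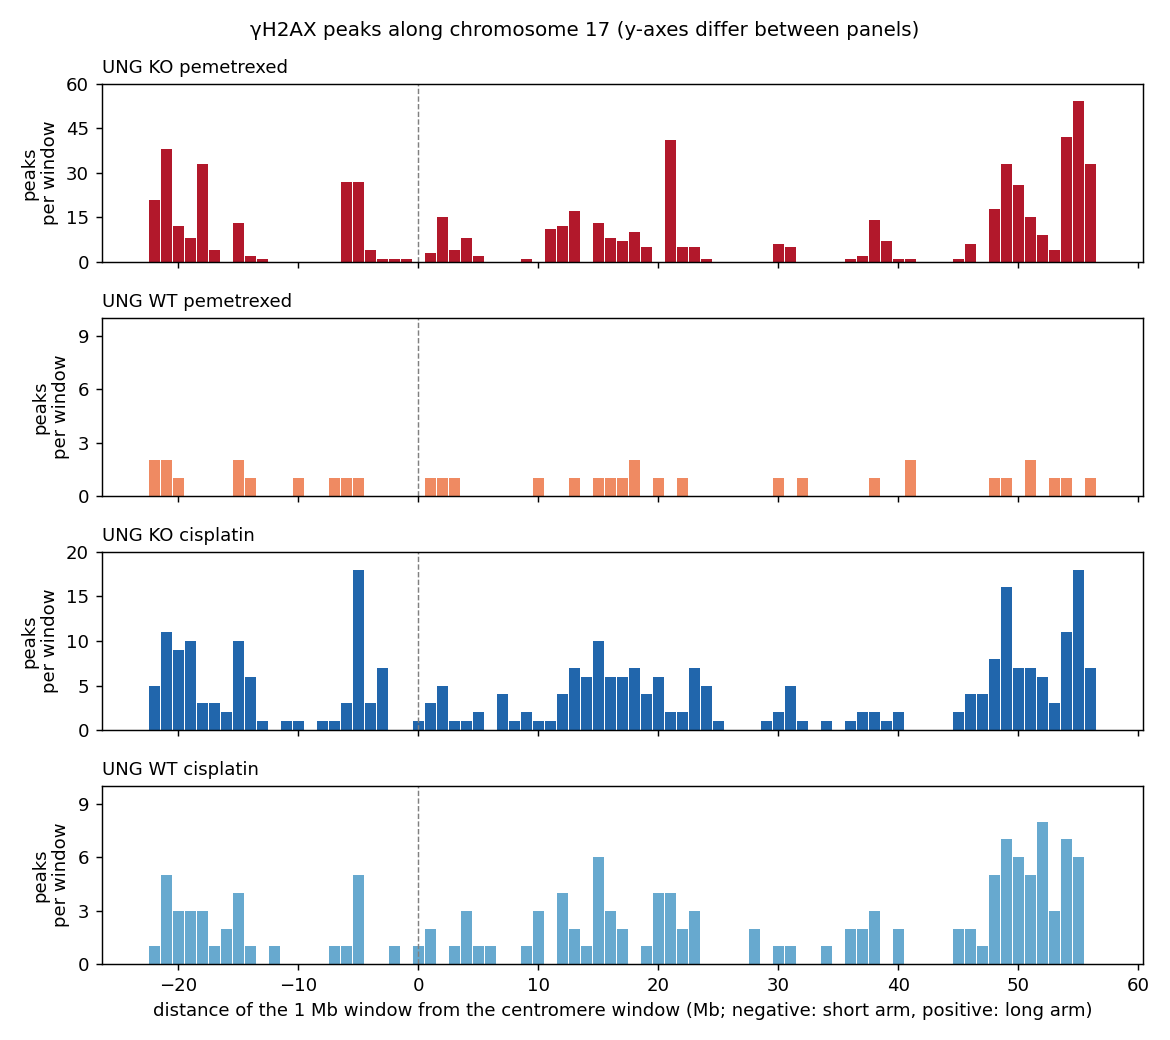
Peaks per window of 1 Mb along chromosome 17 for each list, against the distance of the window from the centromere window in Mb (negative on the short arm), with vertical scales that differ between rows. KO pemetrexed peaks pile up at both ends and in inner windows of both arms, with up to 54 peaks in a window, while WT pemetrexed windows hold 0, 1 or 2.

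Counted per 1 Mb, the KO pemetrexed peaks were unevenly spread. At least 1 was present in 52 of the 79 windows (65.8%, with 23.7% over all chromosomes). The median window held 2, 22 held 10 or more (27.8%, with 5.25% of windows over all chromosomes), and 9 windows together held 328 of the 639 peaks (51.3%). These are 11.4% of the windows, where 2.74% hold 50% of the list over all chromosomes. Such values over all chromosomes also take in differences between chromosomes, and no other chromosome was measured alone. For WT pemetrexed 50% of the peaks took 12 windows (15.2%, with 9.12% over all chromosomes). For KO cisplatin they took 15 (18.99%, with 9.69%) and for WT cisplatin 13 (16.46%, with 8.46%). The WT pemetrexed list has 36 peaks and at most 2 in a window, so its number cannot be set against those of the longer lists. The fullest window for KO pemetrexed was 77000001 to 78000000, near the end of the long arm. It held 54 KO pemetrexed, 0 WT pemetrexed, 18 KO cisplatin and 6 WT cisplatin peaks. KO pemetrexed peaks covered 156 kb of it, with a median width of 2540 bp. The window before it (76000001 to 77000000) held 42 KO and 1 WT pemetrexed peak, and 11 KO and 7 WT cisplatin peaks. The window after it, where the list ends, held 33 and 1, and 7 and 0.

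Away from that end, the window from 43000001 to 44000000 stood out, with 41 KO pemetrexed and 0 WT pemetrexed peaks beside 2 KO cisplatin and 4 WT cisplatin peaks. Its KO pemetrexed peaks covered 122 kb, and its KO cisplatin peaks 1.67 kb. The window before it, 42000001 to 43000000, held 0 KO and 1 WT pemetrexed peak and 6 KO and 4 WT cisplatin peaks. On the short arm the fullest windows were 1000001 to 2000000, with 38 KO and 2 WT pemetrexed peaks and 11 KO and 5 WT cisplatin peaks, and 4000001 to 5000000, with 33 and 0, and 3 and 3. The long-arm window 71000001 to 72000000 also held 33 KO pemetrexed peaks, with 1 WT pemetrexed, 16 KO cisplatin and 7 WT cisplatin peaks.

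The other lists had their own fullest windows. KO cisplatin reached 10 or more peaks in 8 windows (10.1%, with 2.34% over all chromosomes). WT pemetrexed never exceeded 2 peaks, a number reached in 6 windows (those starting at 1, 1000001, 7000001, 40000001, 63000001 and 73000001). The window 17000001 to 18000000, joint fullest for KO cisplatin, held 27 KO and 1 WT pemetrexed peak and 18 KO and 5 WT cisplatin peaks. The fullest for WT cisplatin, 74000001 to 75000000, held 9 KO and 0 WT pemetrexed peaks and 6 KO and 8 WT cisplatin peaks.

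More KO than WT pemetrexed peaks were found in 51 of the 79 windows (64.6%), where 21.1% of the 2992 windows of all chromosomes met that mark. More WT than KO peaks were found in 6 windows (7.59%, with 15.9% over all chromosomes). Of these, 12000001 to 13000000, 15000001 to 16000000, 32000001 to 33000000, 42000001 to 43000000 and 54000001 to 55000000 each had 0 KO and 1 WT pemetrexed peak. The remaining one, 63000001 to 64000000, had 1 and 2, and it had no cisplatin peak of either genotype. After cisplatin, KO exceeded WT in 47 windows (59.5%, with 41.3% over all chromosomes) and WT exceeded KO in 10 (12.7%, with 9.99%). A chromosome with more peaks has fewer windows at 0 in both lists, which alone can raise such shares.

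The drugs were also set side by side, window by window. In WT cells pemetrexed peaks outnumbered cisplatin peaks in 7 of the 79 windows (8.86%, with 14.6% over all chromosomes) and the reverse held in 46 (58.2%, with 26.9%). In KO cells pemetrexed peaks outnumbered cisplatin peaks in 38 windows (48.1%, with 12.7% over all chromosomes) and the reverse held in 24 (30.4%, with 37.5%). The 9 windows with the most KO pemetrexed peaks, chosen by that count, had 328 KO pemetrexed and 89 KO cisplatin peaks, a ratio of 3.69. The other 70 windows had 311 and 212, a ratio of 1.47. Choosing windows by the KO pemetrexed count raises the first ratio over the second by construction, so the pair only describes where the peaks lie. In 5 windows KO pemetrexed peaks were 10 or more and at least 5 times the KO cisplatin peaks (6.33%, with 1.04% over all chromosomes, a mark set after the values were seen). They were the windows starting at 4000001 (33 KO pemetrexed and 3 KO cisplatin peaks), 16000001 (27 and 3), 33000001 (11 and 1), 43000001 (41 and 2) and 60000001 (14 and 2).

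The 27 windows with no KO pemetrexed peak held 5 WT pemetrexed, 33 KO cisplatin and 18 WT cisplatin peaks. KO cisplatin peaks were present in 16 of them, which is 20.3% of the chromosome's windows, with 30.1% over all chromosomes. The longest such stretch ran over 6 windows of the short arm (10000001 to 16000000), with 2 WT pemetrexed, 4 KO cisplatin and 2 WT cisplatin peaks. Another ran over 5 windows of the long arm (47000001 to 52000000), with 2 KO and 2 WT cisplatin peaks and no WT pemetrexed peak. The windows from 36000001 and from 42000001 held 6 KO cisplatin peaks each. Of the 79 windows, 8 held no peak of any list (10.1%, with 35.0% over all chromosomes). The longest stretches without a peak in any list were all on the long arm, 4.75 Mb (63228741 to 67977347), 3.70 Mb (47084606 to 50787768) and 2.09 Mb (54643633 to 56735755).

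**Figure D3:**
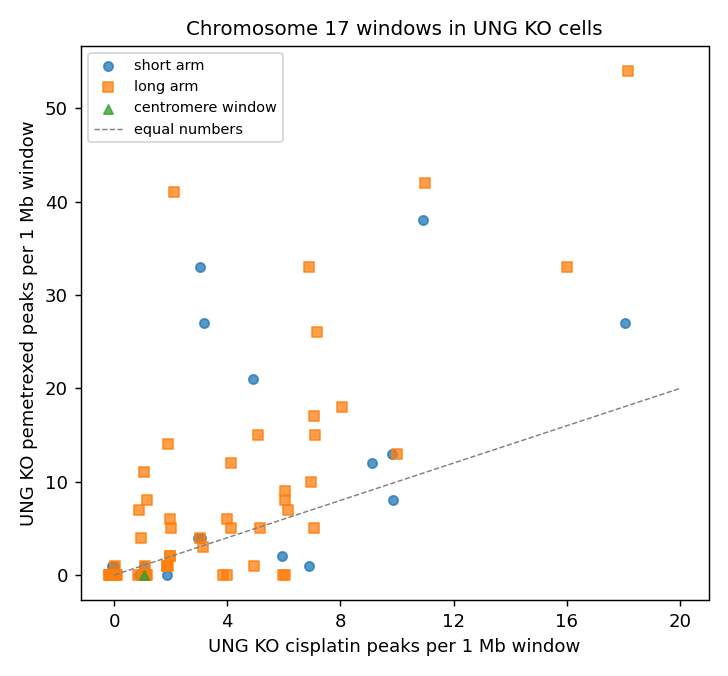
Each point is a 1 Mb window of chromosome 17, with KO pemetrexed peaks on the vertical axis and KO cisplatin peaks on the horizontal axis (points shifted slightly sideways to part ties), by arm; the dashed line marks equal numbers. The window with 41 pemetrexed and 2 cisplatin peaks lies far above the line, while windows with 0 pemetrexed and up to 6 cisplatin peaks lie on the horizontal axis.

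The KO pemetrexed peaks formed long runs. When peaks within 100 kb were joined, 602 of the 639 fell into 62 runs of 2 or more peaks, and 37 stood alone. The runs spanned 11.7 Mb in all (14.9% of the covered span). Runs of 10 or more peaks numbered 16 and held 425 peaks (66.5%), with 53.6% of the list's peaks in such runs on the other chromosomes. WT pemetrexed had 2 runs of 2 peaks each and 32 single peaks. KO cisplatin had 55 runs of 2 or more, the longest with 12 peaks, and WT cisplatin had 24, the longest with 7.

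The run with the most peaks lay towards the end of the long arm (77502881 to 78331674). It held 69 KO pemetrexed peaks over 829 kb, which covered 22.4% of it, beside 1 WT pemetrexed, 13 KO cisplatin and 4 WT cisplatin peaks. The gaps inside it had a median of 5.33 kb, and 18 of them were 1 kb or less. The next run (76490090 to 77295266) held 48 KO pemetrexed peaks over 805 kb, with 0 WT pemetrexed, 17 KO cisplatin and 5 WT cisplatin peaks.

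The third run (43473297 to 44195978) was an inner one, with 45 KO pemetrexed peaks over 723 kb and a coverage of 17.7%. It held no WT pemetrexed peak, 2 KO cisplatin and 2 WT cisplatin peaks. Its peaks were wide, with a median of 2081 bp, and 51.1% of them were 2 kb or more. A run on the short arm (16763440 to 17201392) had a higher share of wide peaks, 58.1% of 31, with a median width of 2254 bp and a median gap of 3.78 kb. It held 6 KO cisplatin and 1 WT cisplatin peak and no WT pemetrexed peak. At the other extreme, the 12 peaks of the run from 2291032 to 2603979 had a median width of 964.5 bp and none reached 2 kb. Of the 16 runs, 2 held no peak of any other list, 23886991 to 24253319 with 13 KO pemetrexed peaks and 33730272 to 33957289 with 10. Both were among the shorter runs (366 and 227 kb). No share over all chromosomes is given for this count, so it cannot be called unusual.

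**Figure D4:**
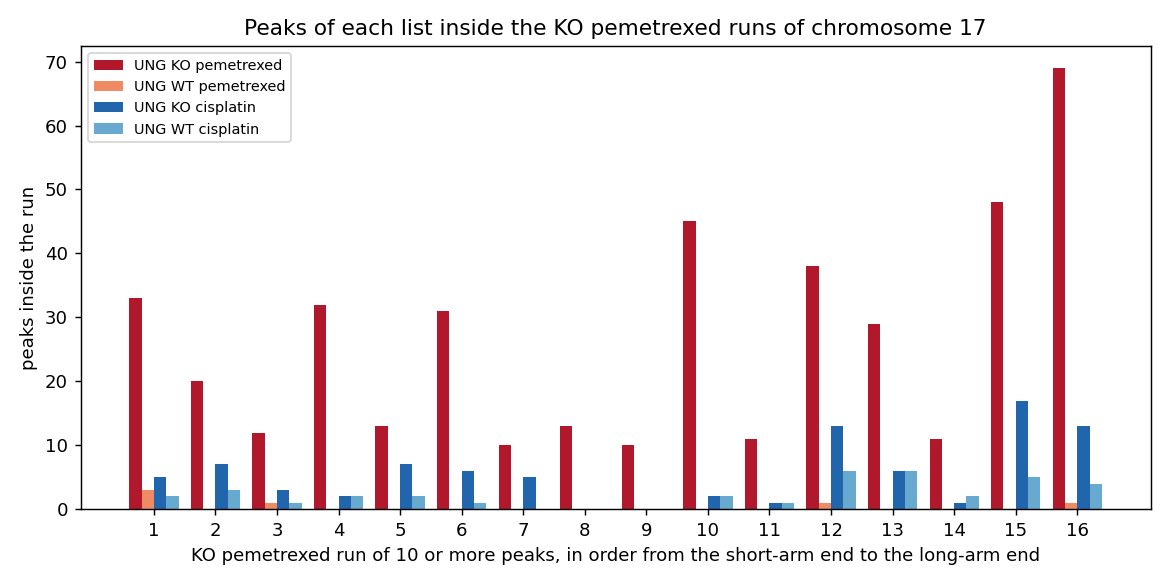
Bars give the number of peaks of each list inside the 16 KO pemetrexed runs of 10 or more peaks, numbered in order from the short-arm end. KO pemetrexed counts range over 10 to 69, KO cisplatin counts reach 17, and WT pemetrexed counts are 3 in the first run and 0 or 1 in the others.

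Some peaks of the other lists lay inside these runs. Of the covered span, 14.9% was in runs of 2 or more KO pemetrexed peaks, and these held 30.6% of WT pemetrexed peaks (11 of 36, 95% interval 16.3 to 48.1%), 44.9% of KO cisplatin peaks (135, 39.1 to 50.7%) and 37.1% of WT cisplatin peaks (53, 29.1 to 45.5%). The median distance to the nearest KO pemetrexed peak was 54.9 kb for WT pemetrexed, 26.2 kb for KO cisplatin and 29.8 kb for WT cisplatin peaks. Within 100 kb of a KO pemetrexed peak lay 58.3% of WT pemetrexed peaks (21 of 36), where 20.1% did over all chromosomes. For KO cisplatin the share was 70.1% (45.6% over all chromosomes) and for WT cisplatin 68.5% (41.8%). The density of the KO pemetrexed list on chromosome 17 enters each of these shares.

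Direct overlap was rare by comparison. At a minimum of 1 bp, 3 KO and 3 WT pemetrexed peaks overlapped each other. They were 0.469% of the KO list (95% interval 0.0969 to 1.37%, with 0.247% over all chromosomes) and 8.33% of the WT list (1.75 to 22.47%, with 1.42%). After cisplatin, 6 KO and 6 WT peaks overlapped, 1.99% of the KO list (0.735 to 4.29%, with 0.701% over all chromosomes) and 4.20% of the WT list (1.56 to 8.91%, with 1.77%). KO pemetrexed and WT cisplatin peaks overlapped in 10 cases, 1.56% of the KO pemetrexed list (0.753 to 2.86%, with 1.37% over all chromosomes) and 6.99% of the WT cisplatin list (3.40 to 12.5%, with 3.99%). In KO cells, 41 pemetrexed and 40 cisplatin peaks overlapped each other, 6.42% of the pemetrexed list (4.64 to 8.60%, with 6.24% over all chromosomes) and 13.3% of the cisplatin list (9.67 to 17.7%, with 7.32%). The KO cisplatin share was higher on chromosome 17 than elsewhere (odds ratio 2.07, 1.41 to 2.96), while the KO pemetrexed share was not separable from that elsewhere (1.03, 0.719 to 1.46). Both shares rest on the same overlaps. Chromosome 17 had 2.12 KO pemetrexed peaks per KO cisplatin peak and the other chromosomes 1.09. This density enters the KO cisplatin share, and its part was not tested. Shares across genotypes were also higher here than elsewhere for WT pemetrexed peaks that met KO pemetrexed (odds ratio 7.86, 1.33 to 32.5). The same held for KO cisplatin peaks that met WT cisplatin (3.31, 1.11 to 8.31). These rest on 3 and 6 peaks, and in every other pair and direction the interval spans 1. KO pemetrexed peaks that met a KO cisplatin peak were 2 kb or wider in 20 of 41 cases, against 160 of 598 of those that met none (odds ratio 2.60, 1.30 to 5.19). A wide peak has more room to meet another. Lists of 1 genotype may have been called against the same control library, and no source used here names it.

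The 3 WT pemetrexed peaks in question were 1058240 to 1058674, 52687586 to 52688289 and 70839393 to 70839910. The KO peaks over them were 863, 1409 and 909 bp wide, so 2 of the 3 were narrower than the KO pemetrexed median. Of 1057 merged regions on the chromosome, 1001 came from 1 list, 53 from 2 lists and 3 from 3 lists, and none had all 4. Regions from 1 list were 94.7% here and 96.4% of 12088 over all chromosomes, and those from 3 lists 0.284% and 0.0910%. Of those 3 regions, 2 surround the WT pemetrexed peaks at 1058240 and 70839393. In the first (1057981 to 1058844) the other lists were KO pemetrexed and WT cisplatin, and in the other (70839250 to 70840159) KO pemetrexed and KO cisplatin. The third region (71097075 to 71099085) lay further on in the same KO pemetrexed run. It held a KO pemetrexed peak of 1417 bp, a KO cisplatin peak of 938 bp and a WT cisplatin peak of 1360 bp.

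Set against the other chromosomes, all pooled, chromosome 17 peaks were more crowded in 3 of the 4 lists. Within 100 kb of another peak of the list lay 94.2% of KO pemetrexed peaks on chromosome 17 and 87.5% elsewhere (odds ratio 2.31, 95% interval 1.64 to 3.36). For KO cisplatin the shares were 67.8% and 56.3% (1.63, 1.26 to 2.11), and for WT cisplatin 44.8% and 28.8% (2.01, 1.39 to 2.88). For WT pemetrexed they were 11.1% and 12.6% (0.866, 0.218 to 2.51), an interval too wide to separate them. Chromosomes 19, 16 and 22 were as crowded or more so in the KO lists, with shares of 96.5%, 94.3% and 95.2% for KO pemetrexed and 86.5%, 71.4% and 75.6% for KO cisplatin. In the KO lists the excess over the pooled rest was thus shared with these chromosomes. For WT pemetrexed their shares were 36.7%, 26.7% and 30.4%, and for WT cisplatin 52.0%, 32.9% and 37.5%. The share of KO pemetrexed peaks of 2 kb or more was 28.2% on chromosome 17 and 21.9% elsewhere (1.40, 1.16 to 1.69). KO cisplatin had 0 of 301 such peaks here and 45 of 4261 elsewhere (odds ratio 0, upper bound 1.20).

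**Figure D5:**
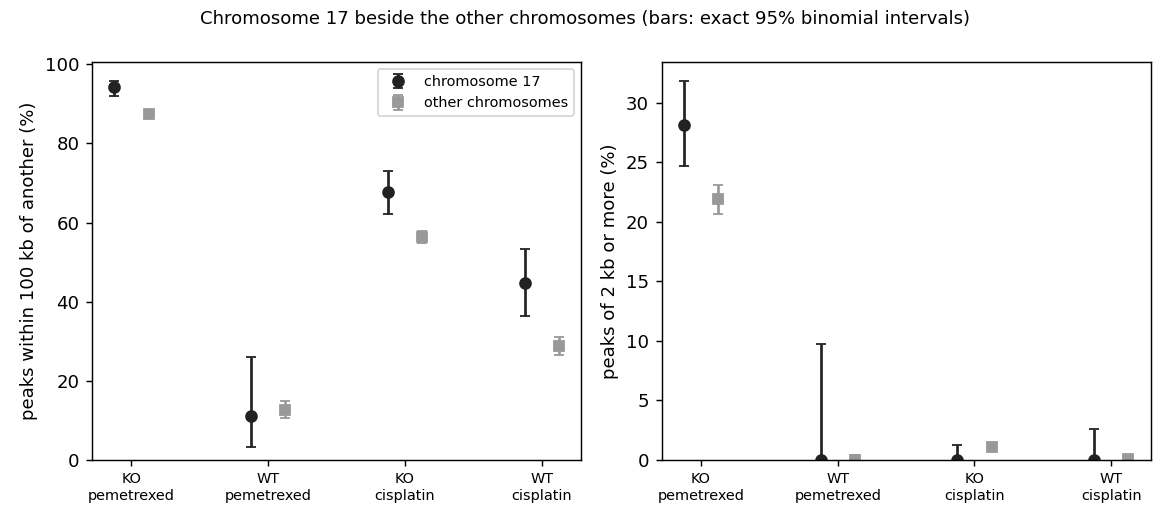
Points give, for each list, the percent of peaks with another peak of that list within 100 kb (left) and the share of 2 kb or more (right), for chromosome 17 and for the other chromosomes, with exact 95% binomial intervals. The chromosome 17 share within 100 kb is 94.2% for KO pemetrexed and 11.1% for WT pemetrexed.

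Chromosomes 19, 16 and 22 were compared with it because they too are gene-dense and were known to hold many KO pemetrexed peaks. That choice favours likeness to chromosome 17 in KO pemetrexed density and in ratios with KO pemetrexed on top. KO pemetrexed peaks numbered 8.14 per Mb on chromosome 17, against 11.8 on chromosome 19, 6.11 on 16 and 10.3 on 22. The KO over WT ratio for pemetrexed, 17.8 here, was 25.03, 12.0 and 15.3 there, and none of the 3 differences had an interval that left out 1 (odds ratios 0.709, 1.48 and 1.16). For cisplatin the ratio of 2.10 here was 2.77 on chromosome 19, 3.21 on 16 and 3.52 on 22. It was lower than on chromosome 16 (odds ratio 0.656, 95% interval 0.472 to 0.908) and on 22 (0.599, 0.410 to 0.866), with no separation from 19 (0.759, 0.564 to 1.02). KO pemetrexed peaks of 2 kb or more were commoner here than on chromosome 19 (28.2% against 22.50%, odds ratio 1.35, 1.05 to 1.73), and not separable from chromosomes 16 (0.926, 0.714 to 1.20) and 22 (1.16, 0.854 to 1.58). KO cisplatin peaks of that width were 0 of 301 here and 2.93% of the 273 on chromosome 16 (odds ratio 0, upper bound 0.522). They were 0.880% on chromosome 19 (upper bound 2.74) and 0.508% on 22 (upper bound 25.5), with no separation from either. No adjustment was made over these 3 chromosomes.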

How the data were processed

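Per the submitters' processing notes, Bowtie (no version given) and MACS 1.4 were used with build hg18. No source used here gives the control library, threshold or filters of the peak calls. The files as deposited hold positions alone (chromosome, start, end), with no count, fold, score or p-value per peak, so read depth is unknown. No list had duplicated rows or overlapping peaks (0 of each). Positions are printed as listed, and a start may be off by 1 bp from a browser's. No hg18 genome or annotation was used, so no sequence is shown and no peak is assigned to a gene.

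Peaks were placed by midpoint in 1 Mb windows from position 1. Shares and ratios have Clopper-Pearson intervals, and odds ratios have exact conditional intervals (Python 3.11.15, scipy 1.17.1); 2 interactions have Wald intervals. The functions were checked on simulated lists. The chromosome, regions and comparisons were chosen with earlier results of these data known. The Wald intervals, the contrasts with single chromosomes, those of width within KO pemetrexed and the window marks were added after values were seen. Regions named were the fullest windows, the widest, first and last peaks, regions of 3 lists, KO pemetrexed runs, stretches without peaks and windows with more WT than KO pemetrexed peaks. Further runs and windows were named after their values were seen.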

Additional observations from a re-analysis of the deposited data

Results flagged for a closer look

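The KO over WT ratio of chromosome 17 peak numbers differed between the drugs. It was 17.8 for pemetrexed and 2.10 for cisplatin, and the first was 8.42 times the second (exact 95% interval 5.64 to 12.8). This factor was 5.38 with peaks within 10 kb joined, 1.97 (1.22 to 3.24) with peaks within 100 kb joined and 15.5 among peaks of at least 600 bp. The 600 bp cut drops a larger part of the WT pemetrexed list than of any other list. Chromosomes 19, 16 and 22 also had higher KO over WT ratios for pemetrexed (25.03, 12.0 and 15.3) than for cisplatin (2.77, 3.21 and 3.52). Each group is 1 library, so genotype and library cannot be told apart.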

How the results depend on the processing

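No paired analysis was possible because there are no replicates. The alternative without the windows of most KO pemetrexed peaks was chosen after seeing the data. Of 67 alternative values for 19 results, 38 stayed within the interval of the value reported (for numbers of windows and shared peaks, within 1.5 times), 28 moved and 1 reversed. With peaks within 10 kb joined, the KO over WT ratio for pemetrexed was 10.5, the pemetrexed over cisplatin ratio in KO 1.41 and the ratio of ratios 5.38. With peaks within 100 kb joined, these were 2.91, 0.651 (reversed) and 1.97, and the KO over WT ratio for cisplatin was 1.48. With peaks of at least 600 bp alone, the KO over WT ratio was 48.6 for pemetrexed and 3.12 for cisplatin. The WT pemetrexed over cisplatin ratio was then 0.143 and the ratio of ratios 15.5. The pemetrexed odds ratio of the short arm was 2.36 (0.508 to 22.1). A stricter calling threshold could not be applied without scores, and this filter on width does not replace it. The cut lies above the WT pemetrexed median of 589 bp and below the KO pemetrexed lower quartile of 915 bp. It therefore drops a larger part of the WT list, which alone raises the KO over WT ratio. Without the first and last 5 Mb, the KO pemetrexed over cisplatin ratio was 1.75. On the short arm alone, the KO over WT ratio for cisplatin was 2.97, the WT pemetrexed over cisplatin ratio 0.375 and the ratio of ratios 5.39. Without the 9 windows of most KO pemetrexed peaks, the KO over WT ratio for pemetrexed was 10.7, the KO pemetrexed over cisplatin ratio 1.47 and the ratio of ratios 5.30. Choosing those windows by the KO pemetrexed count lowers these ratios by construction. The odds ratio of a peak having a neighbour was taken as chromosome 17 over the others. For KO pemetrexed it was 1.48 at 10 kb (1.24 to 1.76) and 7.96 at 1 Mb (2.14 to 66.7). For WT pemetrexed it was 0 at 10 kb, with an interval (0 to 2.83) that spans 1. At 1 Mb it was 4.90 for KO cisplatin (1.87 to 18.3) and 6.48 for WT cisplatin (2.68 to 20.4). Shared peaks within 10 kb are given with their share of the shorter list of each pair. They were 9 for KO and WT pemetrexed (25%, with 5.91% on the other chromosomes) and 25 for KO and WT cisplatin (17.5%, with 11.5%). They were 110 for the drugs in KO (36.5%, with 19.03%) and 4 for the drugs in WT (11.1%, with 4.55%). The density of the longer list enters each share, and its part was not tested. With a reciprocal overlap of 50% the drugs in KO shared 17. Apart from those effects of the width cut and of the choice of windows, the cause of these changes was not tested.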
